A study of Drosophila melanogaster with 17 samples.

Results

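The regions described are the 10 kb windows of the major autosomal arms that carried the most DNA fragments when deproteinised genomic DNA of the Drosophila melanogaster cell line BG3-c2 was cut and sequenced. Windows of 2L, 2R, 3L and 3R were ranked by their number of distinct intervals, assigned by midpoint, in the naked DNA nanopore library. The highest 5% were kept, which gave 483 member windows of 9663, leaving 9180 other autosomal windows. The members were thus selected on the naked DNA counts, which are given below as a description with no test.

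The study mapped nucleosome ladders, the mono- to oligonucleosomal DNA fragments left after limited cutting of chromatin by micrococcal nuclease (MNase), in 17 libraries. BG3-c2 cells come from the larval central nervous system and Kc cells from embryos, and both were grown at 26°C. Total digests were read on nanopore devices (10 libraries), while gel-purified tetranucleosomal DNA and a digestion series were read on Illumina (7 libraries). On nanopore, 2 BG3-c2 libraries had no knockdown, and 3 more came from chromatin cut with little, intermediate or much MNase, 1 library for each digest. The naked DNA library was BG3-c2 genomic DNA without histones, digested with MNase. For Kc, 2 libraries had dsRNA, which silences the matching gene, against GST, the control, and 2 had dsRNA against the linker histone H1, given again on day 3 with harvest on day 6. On Illumina, tetranucleosomal BG3-c2 DNA followed control dsRNA in 2 libraries and dsRNA against the remodelling ATPase ISWI in the other 2, at 50 µg with harvest on day 6. A low, a medium and a high digest of BG3-c2 were also read on Illumina, with 1 library each. Whether these came from the same DNA as the nanopore digests, or from size-selected DNA, was not tested. No nanopore library came from untreated Kc cells, so the cell line and the dsRNA treatment cannot be told apart between lines. The tables hold DNA positions only, so the cell types could not be checked against expressed markers.

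Permanent Drosophila cell lines often carry extra or missing copies of chromosome segments. A segment present in more copies contributes more DNA fragments, whatever its chromatin state, and its ends appear as steps in read depth. In MNase-digested chromatin, depth also follows how readily the fibre is cut and which fragment lengths are sequenced, so depth in chromatin is not a pure copy number. The naked DNA library was also cut with MNase and read as fragments, so its depth is not taken as a pure copy number either. Each library is a bulk sample, in which a gain carried by all cells and a larger gain carried by some cells cannot be told apart.

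Depth set the precision of each library. The naked DNA library held 2097325 distinct autosomal intervals, a median of 212 per window. The 5 BG3-c2 nanopore chromatin libraries held 79688 to 441259, and replicate 2 of the untreated group was the shallowest at a median of 8 per window. Replicate 1 of the Kc control and of the Kc H1 group held 971331 and 531367, whereas replicate 2 of each held 19752 and 19660, a median of 2 per window. Tetranucleosomal libraries held 865444 to 7395565, and the Illumina digestion series 19374382 to 69921199. Repeated intervals, counted once except where stated, made up 22.9% of the listed autosomal intervals of the low Illumina digest and 20.0% of control tetranucleosomal replicate 2. Nothing in the labels says whether replicates were separate cultures, so p-values measure only the spread between these libraries.

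The members were concentrated at the distal, telomeric end of the left arm of chromosome 3. Arm 3L held 341 of the 483 members (70.6%), which was 13.9% of its 2455 windows. Arm 2L held 47, 2R held 39 and 3R held 56, between 1.84% and 2.04% of the windows of each arm. Only 7 members lay in the centromere-proximal 1 Mb of an arm. The first 2930 kb of 3L alone contained 278 members among its 293 windows, or 57.6% of all members.

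Touching members merged into 143 segments. Of these, 106 were single windows, 26 measured 20 to 40 kb and held 63 windows, and 11 measured 50 kb or more and held 314 windows. The long segments thus contained 65.0% of the members, and the longest spanned 1220 kb. Member windows held 267 to 2022 naked DNA intervals, from 1.26 to 9.54 times the median autosomal window, with a median member at 504 intervals (2.38 times). Above 1.5 times the median stood 323 members, and above 2 times stood 270. The threshold fell among tied windows: 7 members and 5 other windows held exactly 267 intervals. Just inside were 3L windows starting at 3510001, 7850001 and 11400001 bp, and just outside were 3L windows starting at 17560001, 19120001 and 22940001 bp, all with 267. Positions are in release 5 of the genome (dm3).

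Levels are given as intervals per window relative to the median autosomal window of the same library. Along 3L the naked DNA level was not flat but ran through several plateaus. The first 2 windows were nearly empty, at 0.0236 and 0.118, and the next 3, from 20 to 50 kb, stood at 2.11 to 2.16. The level was 2.07 from 50 to 100 kb, 1.96 from 150 to 200 kb, 2.37 from 200 to 250 kb and 3.00 from 250 to 300 kb. Between 300 and 400 kb it reached 4.32, and between 500 and 600 kb 4.56, with 2.88 from 450 to 500 kb in between. From 700 to 2600 kb a long plateau of 190 windows followed, at a mean of 2.66 and with quartiles of 2.54 and 2.88.

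The BG3-c2 nanopore chromatin libraries, which had no part in choosing the windows, also stood above their long plateau in these distal stretches of 3L. In the 300 to 400 kb stretch the 5 BG3-c2 nanopore chromatin libraries stood at 3.40 to 4.12, and in the 500 to 600 kb stretch at 3.21 to 4.06. On the long plateau they stood at 2.26 to 2.56, so that both distal peaks exceeded the plateau in each library. The 4 Kc libraries stood at 0.930 to 1.13 at 300 to 400 kb, 1.20 to 1.52 at 500 to 600 kb and 1.22 to 1.29 on the plateau, and no Kc library reached a BG3-c2 library in any of these stretches. Levels of the shallow Kc libraries were scaled to their mean window in place of the median.

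**Figure D1:**
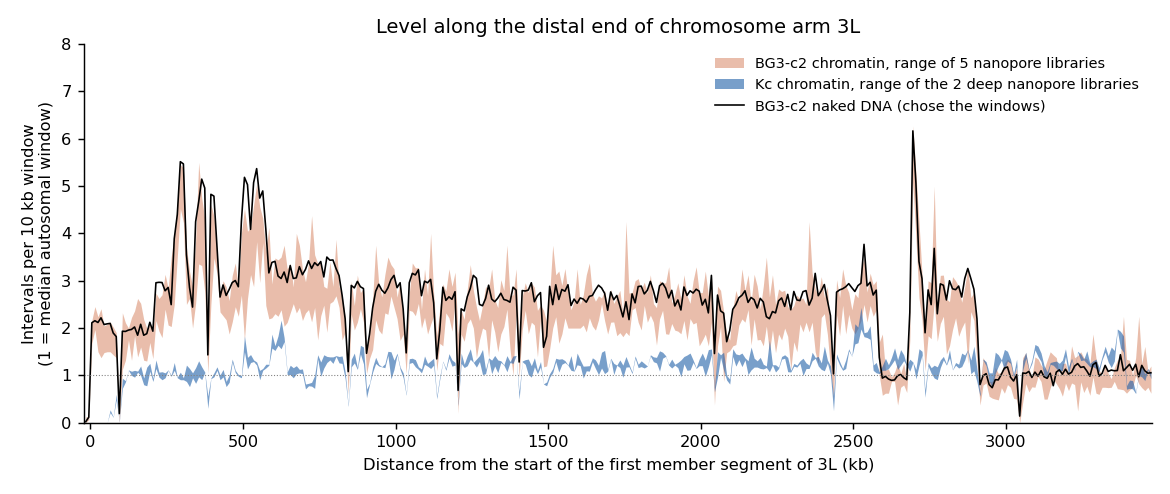
Intervals per 10 kb window along the distal end of 3L, relative to the median autosomal window (y axis), against the distance from the start of the first member segment in kb (x axis). The black line is BG3-c2 naked DNA, the orange band the range of 5 BG3-c2 nanopore chromatin libraries and the blue band the range of the 2 deep Kc libraries. BG3-c2 stands above 2 over most of the stretch and drops to about 1 in a gap of 9 windows and beyond the last segment, while Kc stays near 1 over most of the stretch, at no more than 0.0196 in the first 60 kb.

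Setting the plateau against the sequence just beyond it removed the scale of each library. The ratio of the mean window at 700 to 2600 kb to the mean window at 2940 to 3500 kb was 2.53 in naked DNA. It was 2.35 to 2.68 in the 5 BG3-c2 nanopore chromatin libraries and 2.49 to 2.62 in the 4 tetranucleosomal libraries. The 3 Illumina digests gave 2.01 to 2.21. In the 4 Kc libraries the ratio was 0.892 to 1.02, so the plateau and the flank were at about the same level there. The plateau alone stood higher in tetranucleosomal DNA (3.16 to 3.59) than in nanopore chromatin, but so did the flank (1.27 to 1.38 against 0.948 to 1.00).

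The raised stretch was interrupted by a block near the median autosomal level in naked DNA, BG3-c2 nanopore chromatin and the Illumina digests. A run of 9 consecutive windows from 2610 to 2700 kb were not members, with naked DNA levels of 0.896 to 1.02. In the 5 BG3-c2 nanopore chromatin libraries this gap stood at 0.861 to 1.01, and in the Illumina digests at 0.920 to 0.993. The Kc libraries stood at 1.20 to 1.37 there, above every BG3-c2 nanopore library. Tetranucleosomal BG3-c2 libraries stood higher than the other BG3-c2 libraries in the gap, at 1.30 to 1.51. Immediately beyond the gap came the highest level of the arm end, at 2710 to 2730 kb. Naked DNA reached 5.62 in these windows, BG3-c2 nanopore chromatin 4.50 to 5.77 and tetranucleosomal DNA 10.4 to 11.6, against 0.734 to 1.72 in Kc. A further plateau from 2730 to 2920 kb stood at 2.86 in naked DNA and 2.20 to 2.70 in BG3-c2 nanopore chromatin.

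The first 2 windows of the arm were also not members, and the remaining 4 non-member windows of the stretch were single ones. The window at 110 to 120 kb held 0.193 times the median in naked DNA, that at 860 to 870 kb 1.08, that at 1220 to 1230 kb 0.684 and that at 2450 to 2460 kb 1.03. They divide the block into the merged segments described next.

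The 10 longest segments differed in level and in what Kc showed. The longest, 3L 1230 to 2450 kb, stood at 2.60 in naked DNA. Its levels were 2.55 and 2.32 in the untreated BG3-c2 replicates and 2.19, 2.26 and 2.27 in the low, medium and high nanopore digests. Kc control libraries gave 1.22 and 1.24, and Kc H1 libraries 1.25 and 1.35. All BG3-c2 libraries lay above all Kc libraries.

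The segment at 3L 120 to 860 kb contains both distal peaks and stood at 3.32 in naked DNA. The untreated BG3-c2 replicates gave 3.06 and 2.92, the nanopore digests 2.73, 2.76 and 2.71, and the Kc libraries 1.12 to 1.15. Within this segment, Kc was raised from 610 to 660 kb, with windows at 1.53 to 2.17 in the deep Kc libraries. Each of these windows stood lower in Kc than in every BG3-c2 nanopore chromatin library. The segment at 3L 870 to 1220 kb stood at 2.67 in naked DNA, at 2.31 to 2.53 in BG3-c2 nanopore chromatin and at 1.09 to 1.19 in Kc. That at 3L 2700 to 2930 kb stood at 3.05, at 2.35 to 2.92 and at 1.06 to 1.25, respectively. Over each of these segments as a whole the BG3-c2 and Kc ranges were far apart.

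The segment at 3L 2460 to 2610 kb was raised in Kc as well. It stood at 2.81 in naked DNA and 2.38 to 2.71 in BG3-c2 nanopore chromatin, while the Kc libraries gave 1.52 to 1.77. Within it the stretch from 2520 to 2580 kb reached 1.92 to 2.36 in Kc against 2.32 to 2.82 in BG3-c2 nanopore chromatin, so that the ranges overlapped. That stretch was picked as the longest run in which both deep Kc libraries exceeded 1.5.

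The segment at 3L 20 to 110 kb, nearest the chromosome end, differed from the rest mainly through Kc. Naked DNA stood at 2.06 and BG3-c2 nanopore chromatin at 1.65 to 1.96, but Kc control libraries gave 0.0926 and 0.217 and Kc H1 libraries 0.113 and 0. Over the first 110 kb of the arm the Kc control replicate 1 held 85 distinct intervals, 0.0758 of the median level (exact Poisson 95% interval 0.0605 to 0.0937, counting error only). The shallow Kc H1 replicate 2 held 0 there, which at 3 counts allows a level of up to 0.134. The difference between the lines here was thus one between few or no Kc intervals and a BG3-c2 level of 1.38 to 1.62 over the same 110 kb.

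Outside the 3L end, the longest segment was 2R 20660 to 20780 kb. It stood at 1.87 in naked DNA, at 1.80 and 2.06 in the untreated BG3-c2 replicates and at 1.74, 1.76 and 2.07 in the nanopore digests. Kc control libraries gave 0.725 and 0.612 and Kc H1 libraries 0.752 and 0.410, below the median autosomal window in all 4. Tetranucleosomal libraries stood at 3.22 to 3.32. The segment at 3L 5120 to 5170 kb stood at 2.87 in naked DNA, 2.39 to 2.85 in BG3-c2 nanopore chromatin and 0.881 to 1.13 in Kc.

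The remaining 2 of the 10 were less clear. The segment at 2R 2390 to 2460 kb stood at 1.59 in naked DNA and 1.23 to 1.80 in BG3-c2 nanopore chromatin, against 1.05 to 1.33 in Kc, with overlapping ranges. That at 3R 16320 to 16390 kb stood at 1.37 in naked DNA, 1.11 to 1.48 in BG3-c2 nanopore chromatin and 1.01 to 1.19 in Kc, again with overlap.

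Merging members across gaps of at most 2 windows gave 13 blocks of at least 50 kb, a description added after the data were seen. In 9 of them every BG3-c2 nanopore chromatin library lay above both deep Kc libraries, and in 7 above all 4 Kc libraries. The 9 were the 2 blocks of the 3L end, 3L 5070 to 5170 kb, both 2R blocks, 3 blocks on 2L and 3R 16290 to 16460 kb, the last with 1.20 to 1.38 against 1.03 to 1.21 in Kc. At 2L 13990 to 14050 kb BG3-c2 nanopore chromatin stood at 1.64 to 2.09 and Kc at 1.06 to 1.39, and at 2L 14510 to 14590 kb at 1.47 to 1.82 and 0.978 to 1.17. Naked DNA stood at only 1.26 and 1.29 in these 2 blocks, below every BG3-c2 nanopore chromatin library. The cause of that difference was not tested. The tetranucleosomal libraries of BG3-c2 did not share the rise of these 2 blocks, with 1.06 to 1.13 and 0.961 to 1.104, whereas the Illumina digests stood at 1.77 to 1.99 and 1.70 to 1.84. At 2L 3790 to 3840 kb all BG3-c2 groups were raised, from 1.37 to 1.58 in nanopore chromatin to 1.65 to 1.83 in tetranucleosomal DNA, although the shallow Kc control replicate 2 reached 1.47 with 15 intervals.

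The other 4 blocks were not raised over both deep Kc libraries in every BG3-c2 library. At 3R 7000 to 7050 kb BG3-c2 nanopore chromatin stood at 1.04 to 1.35 and Kc at 1.08 to 1.18. At 3L 14950 to 15000 kb BG3-c2 nanopore chromatin stood at 1.03 to 1.30 and Kc at 1.28 to 1.66. At 3R 17390 to 17480 kb the values were 0.958 to 1.08 and 1.20 to 1.38. At 3L 18200 to 18280 kb they were 0.719 to 1.23 and 0.737 to 1.14, and the tetranucleosomal libraries stood at 0.517 to 0.532. At 3R 7000 to 7050 kb the tetranucleosomal libraries (1.20 to 1.32) and the Illumina digests (1.18 to 1.20) also stood above the median window. In the other blocks of this paragraph, BG3-c2 nanopore chromatin overlapped or lay below Kc, and the tetranucleosomal libraries stood below the median window. There the description as a gain rests mainly on the naked DNA library.

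**Figure D2:**
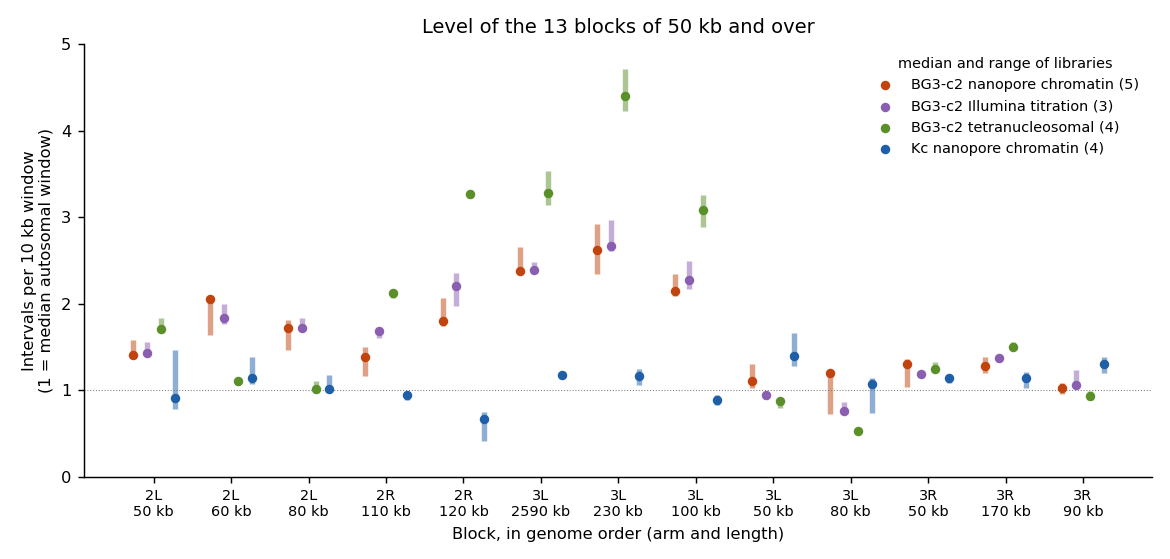
Level of the 13 blocks of 50 kb and over, in intervals per 10 kb window relative to the median autosomal window (y axis), for each block in genome order (x axis). Points are medians and bars ranges over the libraries of each kind. The 3 blocks at 2590, 230 and 100 kb on 3L and the 120 kb block on 2R separate BG3-c2 from Kc most widely, while the last 5 blocks show overlapping or higher Kc values.

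Most ends of the larger blocks lay within 1 kb of each other in naked DNA and in chromatin. Edges were placed at 1 kb resolution, separately in naked DNA and in the pooled BG3-c2 nanopore chromatin. Both searches were confined to a short span around the boundary set by the naked DNA members. That limit bounds how far the placements can differ, so closeness is in part built in. Both put the end of the first 3L block at 2603 kb, the start of the next at 2707 kb and its end at 2928 kb. The 3L block near 5 Mb began at 5073 kb in both and ended at 5171 kb in naked DNA and 5170 kb in chromatin. The 2R block began at 20658 kb in both and ended at 20784 kb in naked DNA and 20795 kb in chromatin. At 3R 16290 to 16460 kb the edges were 16289 and 16288 kb on the left and 16464 kb in both on the right. At 2R 2350 to 2460 kb the placements differed by 0 kb on the left and 4 kb on the right. At the edges of the other blocks they differed by up to 28 kb, close to the widest difference that the search allowed.

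The size of the step at each edge was compared over 30 kb on each side of the window boundary. At the 2700 kb boundary the log2 step was 2.23 in naked DNA, 2.23 and 2.31 in the untreated BG3-c2 replicates and 1.96 to 2.24 in the nanopore digests. Both deep Kc libraries showed no rise there, with log2 steps of 0.004 and -0.34. At the 2930 kb boundary the BG3-c2 nanopore chromatin steps were 1.19 to 1.46 against 0.09 and 0.22 in Kc. At the left edge of the block near 5 Mb Kc also stepped up, by 0.66 in both deep libraries, against 1.58 to 1.95 in BG3-c2 nanopore chromatin.

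The comparison asked whether windows rich in naked DNA intervals are rich in chromatin of the same line and in another line. Enrichment is the log2 ratio of distinct intervals per member window to distinct intervals per other window. Untreated BG3-c2 replicates gave 1.13 and 1.04, and Kc control replicates 0.24 and 0.23. The difference of 0.85 (means 1.09 ± 0.07 and 0.23 ± 0.002, SD, n = 2 each) was larger than the spread within either group. The exact two-sided permutation test gave p = 0.3333, the smallest that 2 against 2 libraries allow. The nanopore digests gave 1.03, 1.02 and 1.03 and the Kc H1 libraries 0.23 and 0.28. With all 5 BG3-c2 and all 4 Kc nanopore chromatin libraries, the means were 1.05 ± 0.05 and 0.24 ± 0.02 (SD), a difference of 0.81 with an exact permutation p of 0.00794, the smallest possible. That wider comparison mixes digests and dsRNA treatments within the lines. The difference depended on the threshold: the untreated and control libraries differed by 0.474 when the highest 10% of windows were taken and by 1.16 with the highest 2%.

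The members differed in chromatin level by the length of their segment, but these classes were formed from the naked DNA counts. In naked DNA, log2 enrichment was already 1.51 in segments of at least 50 kb. It was 0.64 in single windows and 0.59 in segments of 20 to 40 kb. Segment length and naked DNA level thus cannot be told apart here. In the segments of at least 50 kb the BG3-c2 nanopore chromatin libraries gave log2 enrichments of 1.24 to 1.40 and the Kc libraries 0.21 to 0.26. In single windows the same libraries gave 0.25 to 0.48 and 0.26 to 0.36, and the ranges overlapped. In segments of 20 to 40 kb they gave 0.40 to 0.60 and 0.17 to 0.30. Tetranucleosomal libraries gave 1.53 to 1.61 in the long segments, 0.02 to 0.05 in those of 20 to 40 kb and -0.06 to 0.02 in single windows. Outside the 3L end, the 36 members in long segments stood at 0.76 to 0.95 in BG3-c2 nanopore chromatin, -0.18 to -0.02 in Kc and 1.08 to 1.14 in tetranucleosomal DNA.

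**Figure D3:**
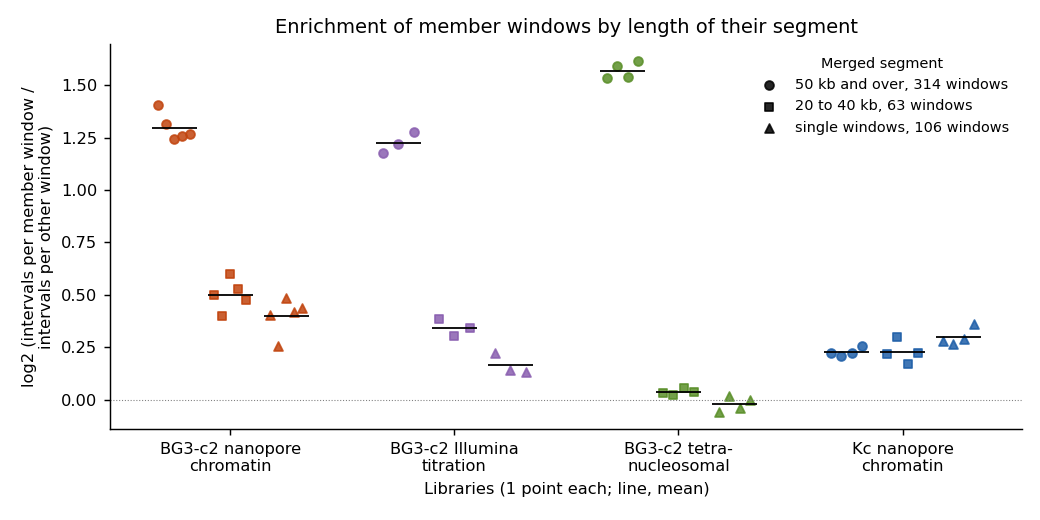
log2 ratio of intervals per member window to intervals per other window (y axis) by kind of library (x axis), with 1 point per library, a line at the mean and the symbol giving the length of the merged segment. Members in segments of 50 kb and over lie at 1.17 and above in every BG3-c2 library and at 0.26 and below in every Kc library, whereas single windows lie between 0.25 and 0.48 in BG3-c2 nanopore chromatin and between 0.26 and 0.36 in Kc.

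The rank of the members was also compared. In a library unrelated to the members, 5.00% of windows are by definition in its own highest 5%. Of the 483 members, 339 (70.2%) were again in the highest 5% of untreated BG3-c2 replicate 1, 271 (56.1%) of the shallow replicate 2, and 324, 328 and 312 of the low, medium and high nanopore digests. The deep Kc control library held 68 members (14.1%) in its highest 5% and the deep Kc H1 library 72 (14.9%). The Illumina digests held 296 to 316, and the tetranucleosomal libraries 202 to 230. In untreated BG3-c2 replicate 1 the members that returned comprised 297 of the 314 in long segments and 23 of the 106 single windows. In the deep Kc control library they comprised 43 and 17, respectively.

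Coverage within a window was described in naked DNA for each class, with no test. The densest 1 kb held a median of 12.6% of the intervals of a window in long segments and 13.8% in single windows, against 13.9% in other windows. A window with more intervals has a lower densest share by counting alone. Intervals with a score under 40, which the ranking left out, made up 0.791% of all intervals in long segments, 5.72% in single windows and 2.68% in other windows. These are pooled shares, and the median window held 0.435%, 0.372% and 0.469%, respectively. The high pooled share of single windows thus does not describe a typical one. The score is a deposited value that looks like mapping quality. The part of repeated sequence in the single windows was not tested.

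Each window was compared between the 5 BG3-c2 and the 2 deep Kc nanopore chromatin libraries with limma on log2 scaled intervals, with Benjamini-Hochberg adjustment at 0.05 over 9603 windows that passed a minimum mean of 5 intervals. The BG3-c2 libraries included the low, medium and high digests, and the deep Kc libraries were one of control dsRNA and one of H1 dsRNA. Cell line was the only term of the fit, so its errors and adjusted p-values treat these conditions as replicates of a line. All 483 members were tested. Over all windows, 3.10% were higher in BG3-c2 and 1.37% lower. Among members, 267 (55.3%) were higher and 3 (0.621%) lower, with a median log2 difference of 0.78, against -0.06 over all windows tested. Members made up 267 of the 298 windows called higher (89.6%), and the other 31 were not members.

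By class, 254 of the 314 members in long segments were higher and none lower, 5 of the 63 in segments of 20 to 40 kb were higher, and 8 of the 106 single windows were higher and 3 lower. At the 3L end, 235 of the 278 members were higher. This count, like those of long segments and of all members, includes windows that passed the minimum mean through BG3-c2 alone. Among them are the 3 largest rises given below. All members at 3L 20 to 80 kb passed it that way, with both deep Kc libraries at no more than 0.0196. Outside the 3L end, 32 of 205 were higher. These included all 12 members of the 2R block at 20660 to 20780 kb, with log2 differences of 1.01 to 1.54, and 8 of the 9 in the block at 3L 5070 to 5170 kb, with 0.80 to 1.44. The 9 members of the 2R block at 2350 to 2460 kb and the 14 of the 3R block at 16290 to 16460 kb had median differences of 0.49 and 0.18, and none passed. The number of calls depended on the Kc libraries: without the Kc H1 replicate 1 it was 107, without the Kc control replicate 1 it was 119, and with all 9 libraries, the shallow ones included, it was 86.

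**Figure D4:**
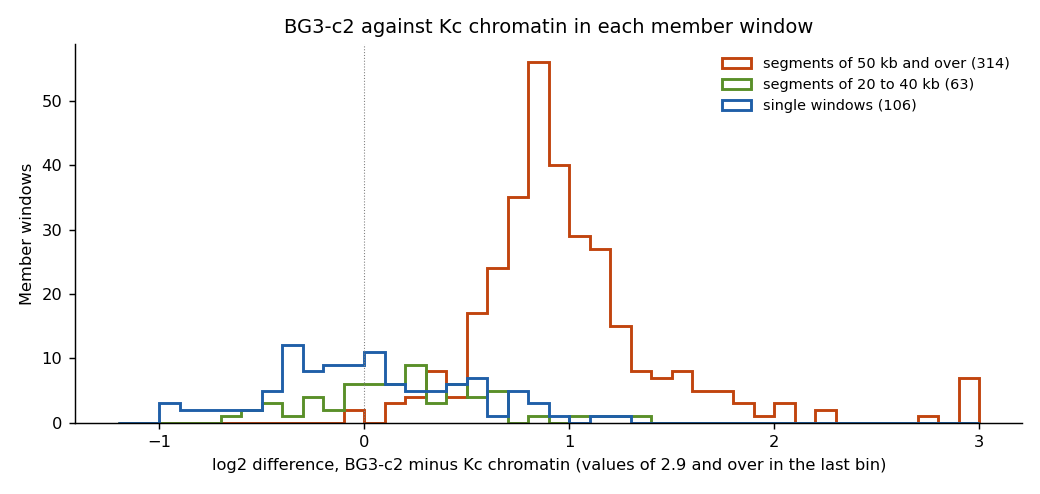
Number of member windows (y axis) by their log2 difference between BG3-c2 and Kc nanopore chromatin (x axis), drawn separately for the 314, 63 and 106 members in segments of 50 kb and over, of 20 to 40 kb and single. Members in long segments gather around their median of 0.92 with a tail to the right, and single windows spread on both sides of 0.

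The 3 largest rises were the windows at 3L 30001 to 40000, 50001 to 60000 and 40001 to 50000 bp. The BG3-c2 chromatin libraries held 287, 282 and 250 intervals in all in these windows and both deep Kc libraries held 0. Against a floor of 3 intervals over the Kc libraries together, BG3-c2 was at least 110-fold, 108-fold and 96.2-fold higher. These windows passed the minimum mean through BG3-c2 alone, so no p-value is given for them. The BG3-c2 levels themselves were moderate, at 1.38 to 2.45 times the median window.

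Of the 3 members with the most naked DNA intervals, 2 were higher in BG3-c2 by this test. The window at 3L 2710001 to 2720000 bp held 1307 naked DNA intervals (6.17 times the median). Untreated BG3-c2 replicates stood at 6.27 and 5.75, the nanopore digests at 5.08, 5.10 and 5.13, and the deep Kc libraries at 1.28 and 1.27. Its log2 difference was 2.03 ± 0.15 (SE, limma adjusted p = 8.9e-07). The window at 3L 310001 to 320000 bp held 1169 (5.51 times). BG3-c2 libraries stood at 4.52 to 5.45 and the deep Kc libraries at 1.07 and 0.909, a log2 difference of 2.27 ± 0.15 (SE, limma adjusted p = 2.34e-07).

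The window with the most naked DNA intervals of all was lower in BG3-c2 than in Kc chromatin. At 2L 620001 to 630000 bp naked DNA held 2022 intervals, 9.54 times the median. BG3-c2 nanopore chromatin stood at only 0.800 to 1.20, the Illumina digests at 0.948 to 1.096, and the deep Kc libraries at 1.73 and 2.16. The log2 difference was -0.95 ± 0.21 (SE, limma adjusted p = 0.0154). The densest 1 kb of this window held 69.6% of its naked DNA intervals, their mean length was 814 bp against 518 bp in other windows, and 15.5% of its intervals were under score 40. Tetranucleosomal libraries reached 3.82 to 10.5 there, with 10.5 in both replicates 2.

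The other 2 falls were of a similar size. At 3R 17410001 to 17420000 bp, with 273 naked DNA intervals, BG3-c2 nanopore chromatin stood at 0.750 to 1.09 and the deep Kc libraries at 1.77 and 1.76 (log2 difference -0.91, limma adjusted p = 0.0145). At 3R 27780001 to 27790000 bp, near the right end of the arm, naked DNA held 805 intervals, of which 51.8% lay in the densest 1 kb. BG3-c2 nanopore chromatin stood at 1.23 to 1.75 and the deep Kc libraries at 2.77 and 2.31 (log2 difference -0.90, limma adjusted p = 0.00717).

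Fragment length played no part in the ranking, so the ladder of members was compared with that of other windows within each library. The percent of intervals up to 250 bp, about 1 nucleosome, was lower in members in all 5 BG3-c2 nanopore chromatin libraries. Members minus other windows came to -0.149 and -0.245 percentage points in the untreated replicates and to -0.0959, -0.165 and -1.13 in the low, medium and high digests. The mean was -0.356 ± 0.434 points (SD, n = 5), with an exact two-sided sign-flip p of 0.0625, the smallest that 5 libraries allow. It was -0.164 without the high digest, and -0.0965 points (exact p = 0.188) when fragments up to 200 bp were counted instead. In untreated replicate 1 the shares themselves were 1.88% in members and 2.03% in other windows. The naked DNA library, which has no nucleosomes, showed a difference of -0.386 points in the same direction. In the Illumina digests the share was higher in members, at 25.6% against 25.1% in the low digest and at 22.0% against 21.8% in both the medium and the high digest. In Kc, 2 of 4 libraries were lower and 2 higher, with a mean of 0.0840 ± 0.412 points (SD, n = 4, exact p = 0.875).

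Long fragments moved the other way. Intervals over 450 bp were more frequent in members in 4 of 5 BG3-c2 nanopore chromatin libraries, by 0.700, 1.39, 0.475 and 1.23 points, while the low digest gave -0.358. The mean was 0.689 ± 0.695 points (SD, n = 5, exact sign-flip p = 0.13), and it turned to -0.0886 points with the highest 10% of windows. Naked DNA differed by 1.36 points in the same direction. Kc gave -0.0447 ± 0.514 points (SD, n = 4, exact p = 0.875).

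In the tetranucleosomal libraries the mean length of intervals of 500 to 1000 bp was 671.5 bp in members and 671.3 bp in other windows of control replicate 1, and 674.1 and 669.5 bp in replicate 2. After ISWI dsRNA it was 652.7 and 651.8 bp in replicate 1, and 641.2 and 640.3 bp in replicate 2. Members were longer in 4 of 4 libraries, by 1.63 ± 2.03 bp on average (SD, n = 4, exact sign-flip p = 0.13, the smallest possible). It was 0.632 bp without control replicate 2, 0.175 bp (exact p = 1) with the highest 2% of windows and -1.11 bp with the highest 10%. For lengths of 600 to 800 bp it was 0.0261 bp (exact p = 0.875). The difference between members and other windows was small beside that between the control and ISWI libraries.

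Spacing could be read where no maximum of the length histogram lay on a search limit. In untreated BG3-c2 replicate 1 the slope through the maxima was 185.3 bp in members and 183.7 bp in other windows. In untreated replicate 2 it was 174 and 186.4 bp, with 7767 intervals in members. In the Kc control replicate 1 it was 182.3 and 181.3 bp, and in the shallow replicate 2 it was 176.4 and 185.4 bp, with 1150 intervals in members. In the Kc H1 replicate 1 it was 169.9 and 164.8 bp, with members of that library represented by 30859 intervals. Members thus had the longer spacing in 3 of these 5 libraries and the shorter in the other 2. The values are given without a test.

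With ISWI dsRNA the level of the members differed from the control by less than the replicates of either group did. With H1 dsRNA it differed by less than the H1 replicates did, but by more than the control replicates did. Tetranucleosomal log2 enrichment was 1.16 and 1.21 in the control libraries, and 1.16 and 1.23 in those treated with ISWI dsRNA. The difference was 0.01, or 0.005 and 0.02 between libraries of the same number (exact permutation p = 0.667, n = 2 per group). In Kc it was 0.24 and 0.23 after control dsRNA and 0.23 and 0.28 after H1 dsRNA, a difference of 0.02, with -0.006 and 0.04 between libraries of the same number (exact permutation p = 1, n = 2 per group). With 2 libraries a group these tests cannot pass 0.05, and small shifts would not have been detected.

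Whether the members respond to stronger digestion like the rest of the genome was read from the titration, which has 1 library per digest and platform and hence no test. On nanopore, member enrichment stood at log2 values of 1.03, 1.02 and 1.03 in the low, medium and high digests, and no change was detectable at this depth. High minus low was -0.002, with a 95% interval of -0.030 to 0.026 that covers counting error only. On Illumina it rose from 0.92 to 0.94 and 0.99, a change of 0.066. Counting every listed interval, repeats included, gave 0.033, and the share of repeated intervals moved with the digests, at 22.9%, 10.3% and 4.55%. The part of these repeats in the change was not tested beyond that value.

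Long segments and single windows moved apart on Illumina. In segments of at least 50 kb the log2 enrichment was 1.17, 1.22 and 1.28 in the low, medium and high digests, and in single windows 0.22, 0.14 and 0.13. Across all autosomal windows tested, 0.228% were over 1.5-fold higher and 3.00% over 1.5-fold lower in the high than in the low Illumina digest. Among members, 4 (0.828%) were higher and 12 (2.48%) lower, which for the lower ones is below the share over all windows. The 4 that were higher all lay at the 3L end.

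On nanopore the ladder shortened with digestion in members and in other windows, and by a little less in members. There, intervals up to 250 bp rose from 4.17% to 7.22% and 10.4% in members and from 4.27% to 7.38% and 11.5% in other windows. The rise from low to high was 6.20 points in members and 7.23 points elsewhere, a difference of -1.03 points. In long segments the rise was 5.78 points, in single windows 7.72 points. Intervals over 450 bp fell from 66.5% to 39.5% in members and from 66.9% to 38.2% in other windows. On Illumina the shares ran the other way. Intervals up to 250 bp fell from 25.6% in the low to 22.0% in the high digest in members and from 25.1% to 21.8% in other windows, while those over 450 bp rose by 6.84 and 6.03 points. With 1 library per digest the spread of these differences between replicates is unknown. In the tetranucleosomal libraries, 29.7% to 38.0% of intervals in other windows were up to 250 bp, nearer the Illumina than the nanopore digests. Size selection of the Illumina digests was not tested, so their length shares are not read as a digestion ladder.

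**Figure D5:**
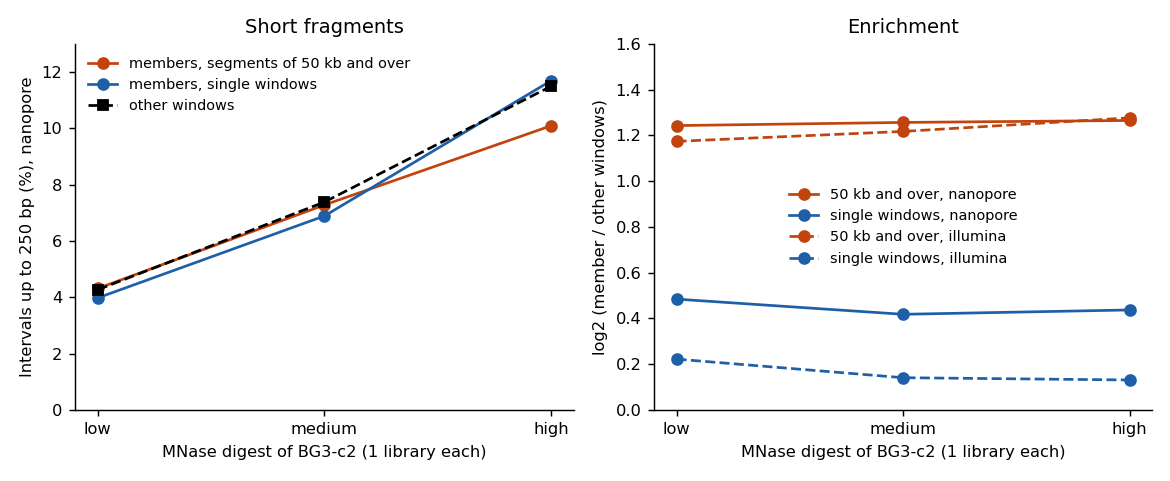
Left, percent of nanopore intervals up to 250 bp (y axis) in the low, medium and high MNase digests of BG3-c2 (x axis) for members in long segments, single member windows and other windows. Right, log2 enrichment of the same members over other windows on nanopore (solid lines) and Illumina (broken lines). Each point is 1 library, the long segments end at 10.1% against 11.5% in other windows, and the enrichment of long segments stays between 1.17 and 1.28.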

How the data were processed

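The deposited tables are lists of genome positions in bp, with 1 line for each aligned read or fragment and no count per region; the submitters' processing notes name the build dm3 (release 5) and the tools Bowtie 1.1.1 and bedtools, with no role or order. The aligner of the nanopore reads, filters and pooling are not given in the sources used here. The authors deposited a score from 0 to 40 in 9 nanopore tables, which looks like mapping quality, and score 40 was kept there; untreated BG3-c2 replicate 2 has none and was used unfiltered. Tables of the digestion series were matched to libraries by name.

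Distinct intervals were assigned by midpoint to 10 kb windows. Members, lists and tests were chosen with earlier results of these data known. Levels are relative to the median autosomal window, or to the mean window in the 2 shallow Kc libraries. Windows named are the 10 longest merged segments, the 3 members with most naked DNA intervals, the 3 largest rises and falls among called members, and 3 windows on each side of the threshold. Single values per library were compared by exact two-sided permutation or sign-flip tests. Windows were tested with limma 3.58.1 (lmFit and eBayes with trend, R 4.3.3) on log2 of intervals scaled to the mean depth plus 0.5, without the 2 Kc libraries whose median was under 5 intervals, after the fit was tested on simulated data. Counting intervals are Poisson-based, at 95%, and cover counting error only. Python 3.11.15, numpy 2.4.6, scipy 1.17.1 and pandas 2.3.3 were used. The reference table used here is of release 6, so no gene or sequence is given by position.

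Replicate numbers are no evidence of shared cultures; values within replicates are given beside the pooled ones. Alternatives changed the member share (2% or 10%), the scores and repeats kept, windows near centromeres, low windows, pseudocount, scaling, length limits and libraries.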

Additional observations from a re-analysis of the deposited data

Results flagged for a closer look

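The level of the member windows differed between the cell lines under the same measure. Log2 enrichment of members over other windows in all BG3-c2 minus all Kc nanopore chromatin libraries was 0.808, and every BG3-c2 library (1.02 to 1.13) lay above every Kc library (0.23 to 0.28). The exact permutation p was 0.00794 for 5 against 4 libraries. Kc libraries had dsRNA and the BG3-c2 nanopore libraries none, so line and treatment cannot be told apart.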

How the results depend on the processing

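The enrichment difference between BG3-c2 and Kc kept its direction under all alternatives tried, from 0.474 with the highest 10% of windows to 1.16 with the highest 2%, and from 0.80 to 0.90 when each library was left out in turn; all 5 against all 4 libraries gave 0.808 (exact p 0.00794). With replicate numbers as a block the differences between BG3-c2 and Kc, ISWI and control, and H1 and control were 0.852, 0.011 and 0.019, with p of 0.5, 0.5 and 1, and no call changed. The percent of members called higher in BG3-c2 was 87.0 with the highest 2% of windows as members, 28.0 with the highest 10%, 17.8 with all 9 nanopore libraries and 22.2 to 66.7 when 1 library was left out. Over all windows, 298 were higher and 132 lower, against 92 and 64 with all 9 libraries, 630 and 606 with array weights, 452 and 317 without untreated BG3-c2 replicate 2, 127 and 10 without the Kc control replicate 1 and 113 and 11 without the Kc H1 replicate 1. The highest 2% and 10% gave 49 and 503 segments, with 36.0% of members in segments of at least 50 kb for the latter; ranking with all scores kept 438 of the 483 members.

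Signs reversed for several small differences. H1 minus control enrichment was -0.024 with the highest 10%, -0.0033 by median windows and from -0.00509 to 0.043 with 1 library left out; ISWI minus control ranged from -0.022 to 0.045. With the highest 10%, the share over 450 bp in BG3-c2 differed by -0.0886 points and tetranucleosomal length by -1.11 bp. In Kc the share over 450 bp differed by 0.431 points with all scores and by -0.207 to 0.147 with 1 library left out, and the share up to 250 bp by -0.109 to 0.214. With 1 library left out, BG3-c2 gave -0.422 to -0.164 points up to 250 bp and 0.512 to 0.950 over 450 bp, and tetranucleosomal length 0.632 to 2.13 bp. The Illumina change from low to high digest was 0.0791 and 0.0174 with the highest 2% and 10%, 0.0609 with all scores, 0.0334 with all listed intervals, 0.103 in segments of at least 50 kb, 0.0606 without centromere-proximal windows, 0.0603 without low windows and 0.0606 by median windows. With other length limits, the BG3-c2 share up to 200 bp differed by -0.0965 points and that over 650 bp by 0.537 points. Tetranucleosomal length within 600 to 800 bp differed by 0.0261 bp. With the highest 2% of windows and unchanged length limits, tetranucleosomal length differed by 0.175 bp. The causes were not tested. Depth limits the shallow Kc libraries most, at a median of 2 intervals per window.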
